A study of Bombyx mori with 3 samples.

Results

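Ferritin and transferrin transcripts were measured in the midgut of silkworm larvae (Bombyx mori, strain P50) reared on mulberry leaves treated with the organophosphate insecticide phoxim or with water. The leaves had been dipped for 1 min, the phoxim solution being at 4 µg/mL. Feeding started on day 3 of the fifth larval stage and midguts were dissected 24 h later, with 30 larvae in each experiment. The labels do not say whether the RNA of these larvae was pooled. Each of 3 two-colour arrays carried phoxim midgut RNA in 1 dye and control midgut RNA in the other, which the series describes as biological replication. With 3 arrays the precision is limited.

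The genes were chosen by name: a gene probe whose best protein match or gene description names ferritin or transferrin, with the files' intensity flag present on all 3 arrays. The flag marks a spot whose brighter channel reaches 400, on a linear scale. By name the array held 2 ferritin probes and 7 transferrin probes, and 3 of these 9 carried the flag on every array, among 3964 such probes of 23229 in all. They are sw03108 and sw11169 for ferritin and sw16203 for transferrin. A further probe, sw09750, matched by letters alone, through an electron-transferring flavoprotein dehydrogenase, and did not carry the flag. The dimmest of the 3 was sw16203, whose brighter channel was 991 on its dimmest array. Just below the flag level was sw18597, the probe of the gene Tf, whose brighter channel was 352 on replicate 2.

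Ferritin is the cage-shaped protein that stores iron in a harmless form. In insects most of it is made of heavy and light subunits that pass through the secretory pathway, and the midgut is a main site of its synthesis, where it takes up iron absorbed from food. Transferrin is a secreted protein of the haemolymph, the insect blood, that binds and carries ferric iron. It is made largely by the fat body and is also known from immune responses.

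The probe sw03108 belongs to the gene LOC732916, which the files name ferritin and whose best match is the secreted ferritin of the moth Trichoplusia ni. The probe sw11169 has no gene identifier, and its best match is the 32 kDa ferritin subunit of the moth Galleria mellonella. The transferrin probe sw16203 is matched to the transferrin of the grasshopper Romalea microptera and has no gene identifier either. The names of sw11169 and sw16203 are therefore by similarity. Each of the 3 has its own gene model on the array and no cross-hybridisation note in the files.

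The files do not settle the direction of replicate 2. According to the labels, phoxim RNA was labelled with Cy5 on every array. The column headers of replicate 2 give Cy5 to the control and Cy3 to phoxim, with the ratio still stated as phoxim over control. Taken as the headers state them, replicates 1 and 2 had a correlation of log2 ratios of r = 0.62 across the 3964 flagged probes. Across these, replicate 3 had r = 0.18 with replicate 1 and r = 0.26 with replicate 2. Across all 23229 gene probes, replicates 1 and 2 had r = -0.47. There replicate 3 had r = 0.42 with replicate 1 and r = -0.45 with replicate 2. All are correlations across probes, and probes are no independent replicates. Values below follow the headers. Turning replicate 2 changes the sign of every log2 ratio on that array and exchanges its channels. Phoxim is then in Cy5 on every array, so that dye and treatment cannot be told apart. Turned values are given where they change a direction, a rank, a count or a call.

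No ferritin or transferrin probe passed the test for a difference between phoxim and control midguts. Of the 3 probes, 0 passed an adjusted p of 0.05 in limma, against 0.681% of all flagged probes (27 of 3964). In the same fit 0 had an unadjusted p below 0.05, against 603 of the 3964. The mean log2 ratio of phoxim over control was 0.26 for sw03108, 0.10 for sw11169 and 0.043 for sw16203. The 3 arrays did not share a direction: all 3 probes were higher in phoxim on replicate 3, all 3 were lower on replicate 2, and on replicate 1 only sw03108 was higher. If replicate 2 is turned, all 3 probes were higher on replicates 2 and 3.

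The ferritin probe sw03108 was bright in both channels of every array. Its phoxim intensities were 15154, 13204 and 18691 on replicates 1, 2 and 3, and its control intensities were 12577, 22154 and 11232. The groups overlapped, and the control of replicate 2 was the brightest of the 6 values. The groups did not overlap once replicate 2 was turned, every phoxim intensity being above every control intensity, as for 4.72% of flagged probes. So turned, this cannot be told apart from a brighter Cy5 channel on every array. The deposited ratios, which the authors normalized within each array, were 1.1541, 0.8901 and 1.6798. The mean log2 ratio was 0.26 ± 0.46 (SD, n = 3), with a 95% confidence interval of -0.24 to 0.77 and an adjusted p of 0.56 in limma. In folds this interval runs from 0.845 to 1.70. With replicate 2 turned the mean was 0.37 ± 0.32 (SD, n = 3, adjusted p = 0.999, limma), with 3 of 3 arrays higher.

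The ferritin probe sw11169 had phoxim intensities of 12135, 9525 and 17298 and control intensities of 12738, 20841 and 8780. Its groups overlapped as well, with the highest value again in the control of replicate 2 and the lowest in the control of replicate 3, and they overlapped with replicate 2 turned too. The deposited ratios were 0.9093, 0.8488 and 1.6105. The mean log2 ratio was 0.10 ± 0.51 (SD, n = 3), with a 95% confidence interval of -0.43 to 0.64 and an adjusted p of 0.84 in limma. With replicate 2 turned the mean was 0.26 ± 0.41 (SD, n = 3, adjusted p = 0.999, limma).

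The transferrin probe sw16203 had phoxim intensities of 1006, 944 and 2593 and control intensities of 1288, 991 and 1892. Both channels of replicate 3 were above all 4 values of replicates 1 and 2. The deposited ratios were 0.8436, 0.777 and 1.6673, and the mean log2 ratio was 0.043 ± 0.60 (SD, n = 3). Its 95% confidence interval was -0.54 to 0.63 and its adjusted p was 0.95 in limma. With replicate 2 turned the mean was 0.29 ± 0.50 (SD, n = 3, adjusted p = 0.999, limma).

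**Figure D1:**
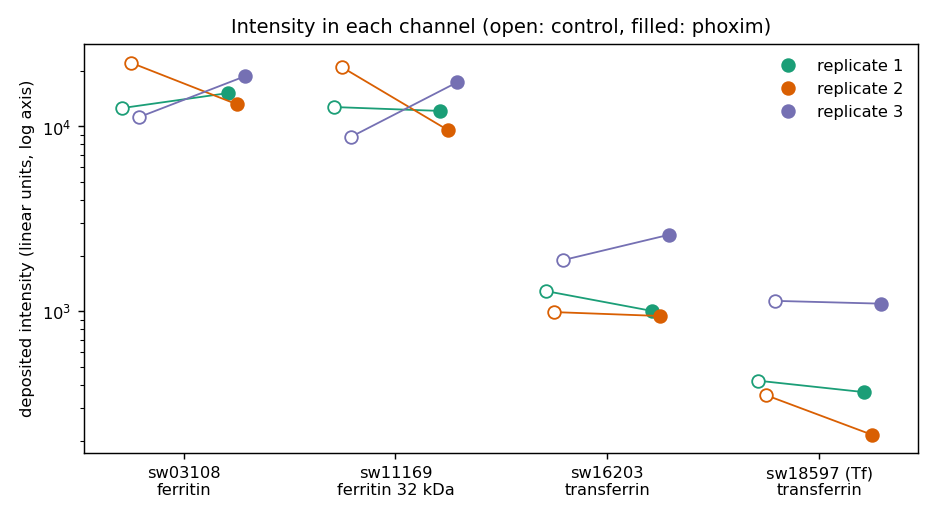
Deposited intensity, in linear units on a log axis, of 4 probes in the control (open) and phoxim (filled) channel of each array, with lines joining the channels of 1 array. As the headers assign the channels, the ferritin lines run in both directions, while for both transferrin probes replicate 3 lies above replicates 1 and 2 in both channels. Brightness differs between probes for reasons of probe design, so heights are comparable only within a probe.

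The 3 probes reached a ratio of 1.5 on replicate 3 and on no other array. There the log2 ratios were 0.75 for sw03108, 0.69 for sw11169 and 0.74 for sw16203, above 94.7%, 93.6% and 94.4% of the flagged probes. All 3 carried the files' mark for a ratio of at least 1.5 on that array, as did 9.36% of all flagged probes. None reached 1.5 on replicate 1 or 2, where 16.4% and 10.1% of flagged probes did. On replicate 2 the log2 ratios were -0.17, -0.24 and -0.36, and on replicate 1 they were 0.21, -0.14 and -0.25, with no such mark in either direction. Without replicate 3 the mean log2 ratios were 0.019 for sw03108, -0.19 for sw11169 and -0.30 for sw16203.

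**Figure D2:**
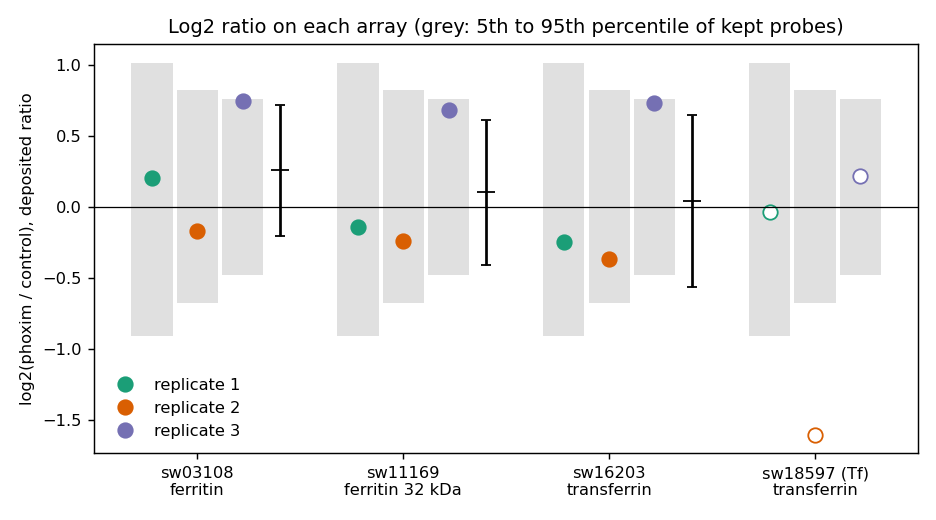
Log2 of the deposited phoxim over control ratio on each array (coloured points), with the mean and SD over 3 arrays in black for the 3 flagged probes. Grey bars span the 5th to the 95th percentile of all flagged probes on that array. Replicate 3 sits between 0.69 and 0.75 for both ferritin probes and sw16203, and the open points of the Tf probe sw18597, which lacked the flag on replicate 2, show -1.60 there as the headers state it.

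Differences between the ferritin probes and transferrin were at most 0.45 in log2 on any array and could not be settled with 3 arrays. The 3 pairs were compared within arrays by an exact sign-flip permutation test, two-sided, whose smallest possible p with 3 arrays is 0.25. The ratio of sw03108 exceeded that of sw11169 on 3 of 3 arrays, by 0.34, 0.069 and 0.061 in log2 on replicates 1, 2 and 3, with a mean difference of 0.16 ± 0.16 (SD, n = 3, exact p = 0.25, 0.375 adjusted over the 3 pairs). Turning replicate 2 left it the higher on 2 of 3 arrays, and the mean difference was 0.11 ± 0.21 (SD, n = 3, exact p = 0.75). It exceeded that of sw16203 on 3 of 3 arrays too, by 0.45, 0.20 and 0.011, with a mean difference of 0.22 ± 0.22 (SD, n = 3, exact p = 0.25, adjusted 0.375), and with replicate 2 turned on 2 of 3, with a mean of 0.089 ± 0.33 (SD, n = 3, exact p = 0.75). Between sw11169 and transferrin the differences were 0.11, 0.13 and -0.050, with a mean of 0.062 ± 0.097 (SD, n = 3, exact p = 0.5, adjusted 0.5), and turned the mean was -0.023 ± 0.12 (SD, n = 3, exact p = 0.75). On replicate 3 the 3 probes lay within 0.061 of one another in log2 ratio, and the spread was wider on replicate 1.

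Of the 3 flagged probes, only sw03108 was brighter in the same dye on every array, and the ratios differed by normalization. For sw03108 the Cy5 channel was the brighter on 3 of 3 arrays, as it was for 8.68% of the flagged probes. For sw11169 and sw16203 Cy5 was the brighter on replicates 2 and 3. The plain quotient of phoxim over control for sw11169 was 0.953, 0.457 and 1.97 on replicates 1, 2 and 3, against deposited ratios of 0.9093, 0.8488 and 1.6105. The deposited normalization therefore moved replicate 2 of this probe most. For sw03108 the plain quotients were 1.20, 0.596 and 1.66, and for sw16203 they were 0.781, 0.953 and 1.37. With the plain quotients centred on each array's median, the mean log2 ratios were 0.066, -0.093 and -0.010 for sw03108, sw11169 and sw16203, and none passed in limma.

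**Figure D3:**
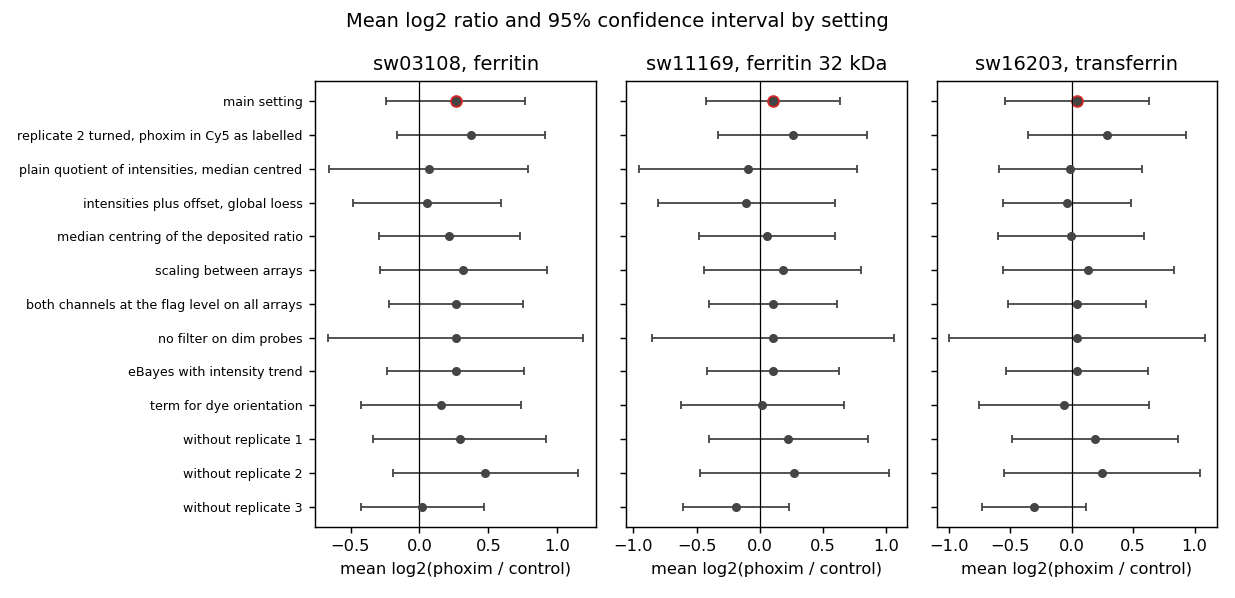
Mean log2 ratio of phoxim over control with its 95% confidence interval from limma, for each of the 3 flagged probes in the main setting (red, top) and under 12 alternatives. Every interval of every probe spans 0, and the means of sw11169 and sw16203 lie on either side of 0 depending on the setting.

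Each probe was also followed across arrays, within its own channel, after adding 50 to the intensities, loess within arrays and quantile normalization of mean intensity between them. Transferrin was higher on replicate 3 in both channels. For sw16203, the level on replicate 3 minus the mean of replicates 1 and 2 was 1.46 in phoxim and 0.63 in control on the log2 scale, above 99.4% and 96.2% of flagged probes. The Tf probe sw18597 showed 2.04 and 1.34, above 99.7% and 99.2%. Ferritin did not follow in control, where sw03108 had -0.56 and sw11169 had -0.84. In phoxim they had 0.22 and 0.57, above 71.4% and 89.8% of flagged probes. The control value of sw11169 was above 1.77% of flagged probes. With the channels of replicate 2 exchanged, sw16203 had 1.33 in phoxim and 0.76 in control and sw18597 had 1.53 and 1.86, all above at least 98.0% of flagged probes. The ferritin values were then -0.0081 and -0.33 for sw03108 and 0.13 and -0.41 for sw11169, the last above 9.61% of flagged probes. With 1 array against 2, these differences have no replicate check and are given as descriptions.

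**Figure D4:**
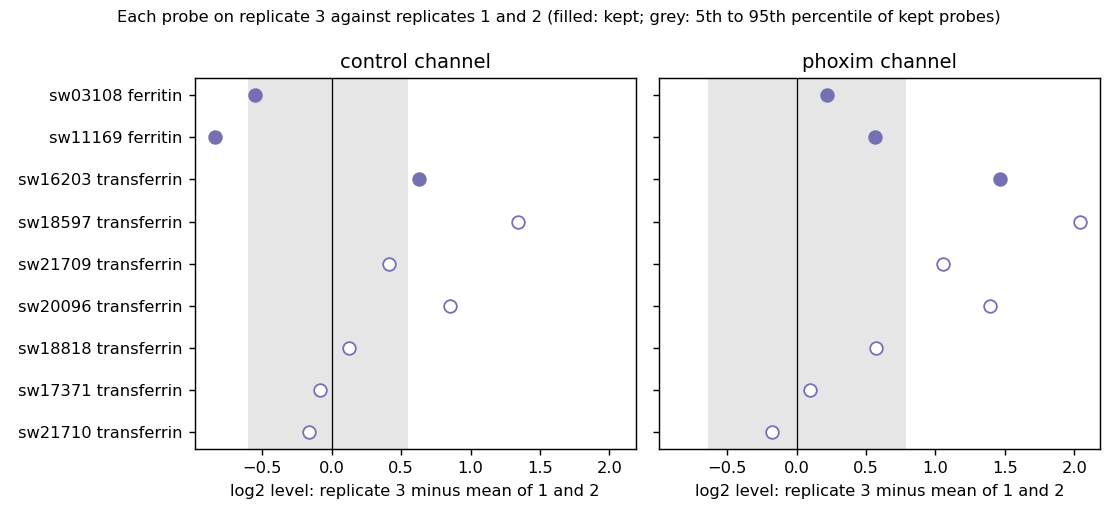
For each ferritin and transferrin probe on the array, the log2 level on replicate 3 minus the mean of replicates 1 and 2, in the control (left) and phoxim (right) channel. Filled points carried the flag on all arrays, open points did not, and grey marks the 5th to the 95th percentile of flagged probes. The transferrin probes sw16203 and sw18597 lie to the right of the grey band in both channels, and in control the ferritin probes lie to the left of 0.

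Probes named for proteins of the fat body and haemolymph, the tissue and fluid in which transferrin is best known, differed in summed level between arrays. By name 51 such probes were on the array and 20 carried the flag on all 3, of which 10 rose and 0 fell in limma, against 0.505% and 0.177% of all flagged probes. Of these 20, 0 rose with replicate 2 turned (0 at an unadjusted p below 0.05), 1 with scaling between arrays and 3 without replicate 2. Of all 3964 flagged probes, 0, 1 and 4 rose in these settings. In a fit with a dye term 0 rose (10 before adjustment, against 348 of all 3964 flagged probes), and 0 of the 3964 did. The count among the 20 was 10 with plain quotients, loess, median centring, an intensity trend or without replicate 1, and 11 without replicate 3. Of all 3964, 16, 22, 18, 21, 17 and 283 rose in these settings, in the same order. For the fat body and haemolymph probes it was 6 of 14 with both channels at the flag level, against 14 of 3215. Without a filter on dim probes it was 0 of 51, against 0 of 23229. The median log2 ratio of the 20 was 1.89, or 0.73 with replicate 2 turned. On replicates 1, 2 and 3 it was 2.00, 1.54 and 1.63 as the headers state the ratios. Their summed intensity was 85357, 53303 and 212230 in phoxim and 32710, 32302 and 65203 in control on replicates 1, 2 and 3, so that replicate 3 was the highest in both channels, also with the channels of replicate 2 exchanged. The part of these transcripts in the transferrin values was not tested. In dissected tissue, fewer cells of a type and less RNA per cell cannot be told apart. Of 154 probes named for midgut proteins such as digestive proteases and the V-ATPase, 67 carried the flag, with a median log2 ratio of 0.090, and 3 rose and 1 fell in limma. Muscle markers (34 of 97 flagged) and haemocyte markers (9 of 51) had medians of 0.43 and 0.43, with 0 and 1 of them rising in limma, and 0 of 12 silk gland probes carried the flag. The midgut, muscle and haemocyte medians with replicate 2 turned were 0.13, 0.27 and 0.071, and no probe of these lists passed in limma. At an unadjusted p below 0.05 there were 0, 3 and 0, against 29 of all 3964 flagged probes.

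The Tf gene itself, LOC692564 in the files, could not be tested with the others. Its probe sw18597 had phoxim intensities of 366, 215 and 1101 and control intensities of 422, 352 and 1140. Phoxim was the lower on 3 of 3 arrays by intensity, or on 2 of 3 with replicate 2 turned, while the deposited ratios were 0.9755, 0.3295 and 1.1652. Its phoxim channel was above the 95th percentile of the negative controls on 2 arrays, and its control channel on 3; turned, these counts are exchanged. Tested without any filter on dim probes, its mean log2 ratio was -0.47 ± 0.99 (SD, n = 3), with a 95% confidence interval of -1.87 to 0.93 (adjusted p = 1.00, limma). The mean had the opposite sign with replicate 2 turned, at 0.60 ± 0.88 (SD, n = 3, not tested). The probes sw21709 and sw21710, matched like sw18597 to the transferrin of the moth Manduca sexta, are linked in the files to a transferrin gene sequence, as is sw18597. The brighter of them, sw21709, had phoxim intensities of 284, 164 and 382 and control intensities of 150, 321 and 354. Each of its channels was above the 95th percentile of the negative controls on 2 arrays. With replicate 2 turned, phoxim was above it on 3 and control on 1. Its deposited log2 ratios of 0.59, -0.84 and -0.095 and those of sw18597 (-0.036, -1.60 and 0.22) were both lowest on replicate 2, and with that array turned both are highest there (0.84 and 1.60). On that array the phoxim intensities of both probes, as headed, were below that percentile.

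Of the other transferrin probes, sw17371 and sw21710 were not above the negative controls in either channel of any array. The control channels of sw18818 and sw20096 were not above them on any array, and the phoxim channels were on 2 and 1 arrays. No fold is given for these: for the first pair both channels were below that level, and for the second the bound it allows is under 1. The 6 transferrin probes without the flag on all arrays had intensities from -3 to 1140.

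The flagged probes with the nearest pattern were found by Euclidean distance over the 3 log2 ratios, among 2601 others with a symbol or an informative match. Nearest to sw03108 were sw13277, the V-ATPase subunit G gene LOC692985, at 0.082, sw00921 at 0.12 and the alpha-glucosidase-like sw04139 at 0.13. Nearest to sw11169 were sw07984 at 0.13, the copper transporter gene LOC733007 at 0.14 and the trehalase gene LOC693027 at 0.14. Nearest to transferrin were sw09651, matched to a peptidoglycan recognition protein of Trichoplusia ni, at 0.11, sw11055, matched to a repressor of E1A-stimulated genes, at 0.17, and the ferritin probe sw11169 at 0.17. Of 3963 other flagged probes, 3 were nearer to sw16203 than sw11169 was. The ferritin probes were less alike: 71 probes were nearer to sw03108 than sw11169 was, at a distance of 0.36. Over 3 arrays such distances are descriptions only, and turning replicate 2 leaves them as they are.

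Other genes of iron and metal handling, drawn by name, held no probe that passed the test. Of 65 such probes, 23 carried the flag on all arrays, and 0 rose and 0 fell in limma. Among all 3964 flagged probes 603 had an unadjusted limma p below 0.05, and among these 23 it was 3. Their median log2 ratio was 0.090, beside 0.035 over all flagged probes, and it was -0.0091 with replicate 2 turned. Without replicate 3, 2 of the 23 rose and 2 fell in limma, when 470 of all 3964 flagged probes passed. Of these 23, 4 matched by name alone (a b-ZIP transcription factor, an ABC transporter and a pair of iron-containing alcohol dehydrogenases), and without them the median was also 0.090. The rest were not sorted further. They include proteins that hold haem or iron-sulfur clusters, such as matches to a cytochrome b5 and a Rieske iron-sulfur protein. On replicate 3, 2 of the 23 reached a ratio of 1.5, against 9.36% of all flagged probes.

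The smallest p among those with a higher mean belonged to sw09668, matched to a cytochrome b5, a haem protein that passes electrons to membrane enzymes. Its log2 ratios were 1.19, 0.69 and 1.45, averaging 1.11 ± 0.39 (SD, n = 3, limma adjusted p = 0.071), so that 3 of 3 arrays were higher. This became 2 of 3 with replicate 2 turned, and the mean was 0.65 ± 1.17 (SD, n = 3, limma adjusted p = 0.999). The smallest p among those with a lower mean belonged to LOC732895, haem oxygenase, which opens the haem ring and frees its iron. Its log2 ratios were -0.81, -0.62 and 0.17, averaging -0.42 ± 0.52 (SD, n = 3, limma adjusted p = 0.40), and -0.0088 with replicate 2 turned. Like the ferritin probes it was below 0 on replicate 2 and above 0 on replicate 3. The probe sw17855, matched to iron regulatory protein 1A of Drosophila melanogaster, a relative of the aconitases that in its iron-free form binds ferritin mRNA, had log2 ratios of 0.40, 0.21 and -0.34. It was below 0 on replicate 3, where 3 of the 4 flagged aconitase and iron regulatory probes were above 0. The mean of sw17855 was 0.090 ± 0.38 (SD, n = 3, adjusted p = 0.84, limma), or -0.053 with replicate 2 turned. This probe was described after its values were seen. The 4 flagged aconitase and iron regulatory probes had a median of 0.11, or -0.0049 turned.

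Of 17 probes named for mitochondrial iron and iron-sulfur proteins, 6 carried the flag, with a median of -0.039 and means from -0.39 to 0.12. The lowest was sw15937, matched to the iron-sulfur cluster scaffold protein Nifun of mouse, with log2 ratios of -0.90, -0.54 and 0.26 and a mean of -0.033 with replicate 2 turned. The 3 flagged zinc and iron transporter matches had a median of 0.44 (0.079 turned), and 1 of them is the b-ZIP factor. The 4 flagged copper and metallothionein probes had a median of 0.21 (0.088 turned). None of 7 haem synthesis probes, 9 multicopper oxidase probes or the 1 ferric reductase probe carried the flag on all arrays, and no probe named for a divalent metal transporter was found. The files' own term for iron ion homeostasis covered 8 probes, of which the ferritin probes sw03108 and sw11169 were the ones that carried the flag on all arrays.

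**Figure D5:**
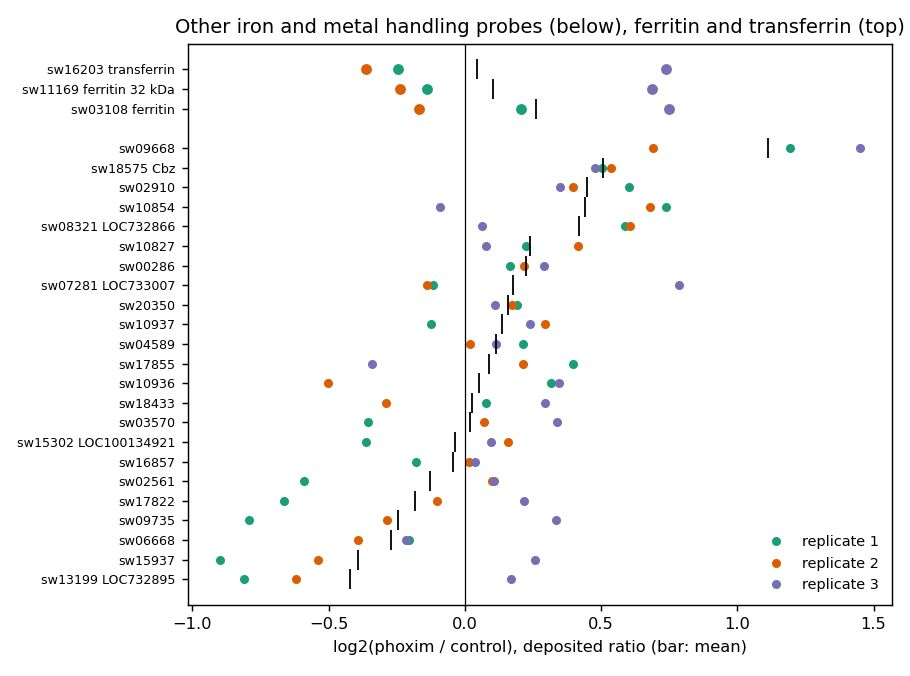
Log2 of the deposited phoxim over control ratio on each array (coloured points) and its mean (black bar) for the 23 other flagged probes of iron and metal handling, ordered by mean, with the ferritin and transferrin probes above. The ferritin and transferrin probes have replicate 3 at 0.69 to 0.75 and, as the headers state the ratios, no other array above 0.21, while sw09668 is at 0.69 or higher on every array. Turned, replicate 2 is at 0.36 for sw16203 and at -0.69 for sw09668.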

How the data were processed

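RNA of phoxim-treated and control midguts was compared on 3 two-colour arrays. Per the file headers, the authors deposited a Cy5 and a Cy3 intensity and a ratio of phoxim over control for each spot. No background column was in the files used here, and the intensity columns reach 0 and below, and they were treated as already background-subtracted. The deposited ratio differs from the plain quotient by a normalization whose method is not given in the sources used here. Per the file headers, it is phoxim over control. The authors' deposited log2 value table equals the log2 of that ratio to within 4.9e-09. Separate backgrounds being absent, no background was fitted.

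Control spots were left out. An intercept-only model of the log2 ratio was fitted with limma 3.58.1 (R 4.3.3, eBayes, two-sided), and p-values were adjusted by Benjamini-Hochberg over the 3964 probes with the flag on all arrays. The fit was tested on simulated data with independent normal noise for each probe and no dye effect. Such data cannot test the doubt over replicate 2 or effects of dye. Of the 9 probes, 2 had a gene identifier, and both matched the reference table of assembly ASM3026992v2, used for names only. For each flagged ferritin or transferrin probe, the 3 nearest named probes were listed, and of other iron genes the smallest p in each direction was named; other probes there were chosen after their values were seen. The genes and lists were chosen with earlier results of these data known. No sequences were in the files used here for these probes. The series calls the arrays biological replicates without saying how the larvae were divided, so p-values measure the spread between these arrays.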

Additional observations from a re-analysis of the deposited data

Results flagged for a closer look

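The Tf probe sw18597, which was left out of the test over flagged probes because it lacked the intensity flag on replicate 2, gave a signal above the negative controls. Its control intensity was at least 1.38 times the 95th percentile of the negative controls on each of 3 arrays. Read with replicate 2 turned, the control channel was above that percentile on 2 arrays and the phoxim channel on 3, there at least 1.83 times it.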

How the results depend on the processing

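Of the 3 flagged ferritin and transferrin probes, 0 passed in limma under each of the 12 alternatives, with adjusted p from 0.30 to 1.00. The mean log2 ratio of sw03108 stayed above 0 in all 12. The settings with both channels at the flag level, no filter on dim probes or an intensity trend leave each probe's mean unchanged by construction. The mean of sw11169 was -0.093 with plain quotients and -0.10 with loess on the intensities, and that of sw16203 was -0.010 and -0.038. The mean of sw16203 was -0.0028 with median centring and -0.059 with a term for dye orientation. With 1 replicate left out, the means ranged from 0.019 to 0.48 for sw03108, from -0.19 to 0.28 for sw11169 and from -0.30 to 0.25 for sw16203, the lowest being without replicate 3 in each case. The difference of sw11169 minus sw16203 was -0.023 with replicate 2 turned, -0.083 with plain quotients and -0.067 with loess.

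Over all flagged probes, 27 passed in limma, 1 with scaling between arrays and 16 with both channels at the flag level. The count was 0 with replicate 2 turned (29 at an unadjusted p below 0.05), 0 without a filter on dim probes (450) and 0 with a dye term (348). It was 4 without replicate 2 and 470 without replicate 3. The causes were not tested. No further pairing was added, because the ratio of each array already pairs its phoxim and control RNA. Of the 9 probes, 6 did not carry the flag on every array and were left out of the test over flagged probes. Among them, sw18597 had a control channel, as headed, above the negative controls on every array. The alternatives for the fat body and haemolymph probes were added after seeing the data. The count that rose was 10 as reported and ranged from 0 to 11 under the 12 alternatives. The count of all tested probes that rose ranged from 0 to 283 under the same alternatives.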

Other observations

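Among the dimmest transferrin probes, sw17371 had the higher intensity in Cy3 on 3 of 3 arrays, with 100, 87 and 78 in Cy3 and 22, 20 and 1 in Cy5 on replicates 1, 2 and 3. Its deposited log2 ratios of -1.54, 0.72 and -2.61 changed sign with the dye named in the headers. The probe sw20096 also had Cy3 the brighter on 3 of 3 arrays, with 107, 110 and 192 against 58, 44 and 180.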
